A study of Mus musculus with 6 samples.

Results

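Activator protein 1 (AP-1) is the name for the dimers formed by basic leucine zipper proteins of the Fos, Jun, Batf and Atf families, and the genes described here are 10 members of those families: Fos, Fosb, Fosl1 and Fosl2 of the Fos subfamily, Jun, Junb and Jund of the Jun subfamily, Batf and Batf3 of the Batf subfamily, and Atf3. They were taken by name from the 19977 Entrez genes of the deposited table, after the values of each gene's RefSeq transcripts had been summed, and all 10 were found. All 10 also passed a filter of a mean FPKM (fragments per kilobase of transcript, scaled to sequencing depth) of at least 1 over the 6 libraries, as did 10509 genes in all, and the young libraries alone also averaged at least 1 FPKM for each of the 10.

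The libraries were made from total RNA of CD4+ T cells, the helper class of T lymphocytes, of wild-type C57BL/6 mice. In the old group the mice were 11 months old, and in the young group 6 to 8 weeks old, with 3 libraries in each. Both groups' cells were taken from lymph nodes and spleen, sorted on a flow cytometer, and spent 6 hours in culture with anti-CD3 and anti-CD28 antibodies, so no unstimulated sample stands beside them. The titles code the young age as 1 month, whereas the protocol gives the weeks used here, and nothing in the labels says that each library is a separate animal, so a p-value measures the spread between these libraries, which may be technical.

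In a T cell, engagement of the receptor and of Cd28 activates the ERK and JNK kinases, which induce the Fos and Jun genes and modify their products. Fos proteins do not pair with each other and bind DNA as partners of Jun proteins, at sites of the form TGANTCA. Batf and Batf3 are short proteins that also pair with Jun proteins but have no activation domain of their own, and Batf-Jun dimers bind together with Irf4 at composite sites in the cytokine genes of helper T cells. Batf is known for its part in Th17 and follicular helper differentiation, and Atf3 as a factor of stress responses.

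The members lie on 7 chromosomes. Fos and Batf are neighbours on chromosome 12, 209 kb apart, with Jdp2, another Jun-dimerizing factor, as the only protein-coding gene between them, and Batf3 and Atf3 lie 61.4 kb apart on chromosome 1. The 3 Jun genes each have 1 exon in the GENCODE annotation of GRCm38, against 3 or 4 exons in the other 7 genes. The RefSeq promoter table (GRCm38.p6) held 9 of the 10 genes, all but Fosl1. In the 250 bases before the annotated start, 3 of these 9 held the 6-letter core TGACGT of a cyclic AMP response element on either strand, a motif found in 6.47% of the 32851 such windows in the table. These were Batf, Fos and Atf3, whose windows are printed below together with that of Junb, the most abundant member in the old libraries, which had none. Capitals mark TGACGT or its reverse complement and, in Fos, the TATAAA box 28 to 33 bases before the start, which 12.4% of the windows hold on either strand. The core ends 93 bases before the start in Batf, 61 in Fos and 3 in Atf3, where it is on the minus strand of the gene. The windows are chr12:85686470-85686719 (plus strand) for Batf, chr12:85473640-85473889 (plus) for Fos, chr1:191183334-191183583 (minus) for Atf3 and chr8:84978749-84978998 (minus) for Junb, each written 5′ to 3′ along the gene.
Batf: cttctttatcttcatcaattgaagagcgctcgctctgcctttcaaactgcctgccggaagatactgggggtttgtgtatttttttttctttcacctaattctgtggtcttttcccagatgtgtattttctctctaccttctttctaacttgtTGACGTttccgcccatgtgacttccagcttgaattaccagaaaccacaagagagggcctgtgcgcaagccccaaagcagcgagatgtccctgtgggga
Fos: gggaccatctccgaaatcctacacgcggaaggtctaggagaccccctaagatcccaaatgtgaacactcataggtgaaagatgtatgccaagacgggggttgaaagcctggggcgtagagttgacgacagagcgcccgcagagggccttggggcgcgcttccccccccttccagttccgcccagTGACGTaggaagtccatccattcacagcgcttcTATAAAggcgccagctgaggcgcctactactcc
Atf3: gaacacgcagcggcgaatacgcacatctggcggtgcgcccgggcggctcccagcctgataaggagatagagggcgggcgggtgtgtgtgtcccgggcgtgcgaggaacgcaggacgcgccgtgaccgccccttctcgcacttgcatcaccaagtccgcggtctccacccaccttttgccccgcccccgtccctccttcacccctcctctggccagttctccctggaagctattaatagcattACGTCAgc
Junb: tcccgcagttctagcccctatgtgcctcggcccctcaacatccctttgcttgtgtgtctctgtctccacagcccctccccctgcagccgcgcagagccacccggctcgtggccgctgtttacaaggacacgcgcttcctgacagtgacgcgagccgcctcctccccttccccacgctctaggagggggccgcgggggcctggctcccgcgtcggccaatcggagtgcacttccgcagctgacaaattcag

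None of the 9 windows held the AP-1 site TGANTCA (6.75% of all windows), the full element TGACGTCA, which contains the 6-letter core (1.55%), or a CArG box, the serum response factor site (1.47%). Such a match is a string of letters in this window and not a measured site.

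Between 16932551 and 18708205 expected counts were assigned to genes per library. Young replicate 1 differed most from its group: its correlation over genes was 0.927 and 0.914 with replicates 2 and 3, whose own was 0.982 (log2 CPM of 10509 genes, which are not independent replicates). Among the 3 young libraries it was the lowest for 9 of the 10 members, all but Fosb, while 41.2% of all genes tested were lowest there. Among the old libraries, replicate 3 was the highest for 8 of the 10, against 33.1% of all genes. The cells carried the T-cell markers of the label, with 6 of 8 genes such as Cd4 and Cd3e at positive and 2 at negative log2 differences. In edgeR 0 of the 8 were called, beside 0.875% of all genes. DESeq2 called 1 of the 8, beside 4.77% of all genes, and 1 had an unadjusted p under 0.05, beside 10.6%. Values in CPM (counts scaled to library size) below use library sizes scaled by TMM, and differences are old minus young on the log2 scale.

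Batf was the 1 member that passed the test, and it rose in old libraries. Batf (Entrez gene 53314) spans chr12:85686720-85709087 in GRCm38. It stood at 123, 109 and 145 CPM in old libraries, against 36.7, 47.8 and 45.8 CPM in young libraries. Every old library was above every young one, by a margin wider than the spread within either group. Its log2 difference was 1.53 ± 0.18 (SE, n = 3 per group, 95% interval 1.10 to 1.96), or 2.89-fold, and the adjusted p was 0.0250 by the quasi-likelihood test of edgeR, adjusted after Benjamini and Hochberg over all genes tested. Of all genes tested, 0.875% were called in either direction, 0.742% as higher and 0.133% as lower in old libraries, beside 1 of the 10 members called higher and 0 called lower. In bulk RNA, more cells that carry a transcript and more of it per cell cannot be told apart. The difference stayed between 1.42 and 1.62 whichever library was left out. The adjusted p was 0.00352 without young replicate 1, but from 0.0792 (without old replicate 1 or young replicate 2) to 0.137 (without old replicate 2) without any one of the other 5 libraries, where the call was lost, 0.0900 and 0.104 being the values without old replicate 3 and young replicate 3.

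Batf3, the closest relative of Batf and a factor known for the development of cross-presenting dendritic cells, was near the bottom of the range. It had 2.01, 1.34 and 4.30 CPM in old libraries, against 0.461, 1.55 and 1.15 CPM in young libraries, and the groups overlapped. Between 8 and 79 counts lay behind these values. Its log2 difference of 1.26 had a 95% interval of -0.11 to 2.64 and an adjusted p of 0.531 in edgeR (quasi-likelihood, Benjamini-Hochberg). Markers of dendritic cells, summed over 7 genes of which Cd209a was at 0 in all libraries, came to 26.2 to 30.8 CPM in old libraries and 16.2 to 23.3 CPM in young libraries. Of these 7 genes 3 were tested, 2 with a positive and 1 with a negative log2 difference (median 0.11). Old libraries lay wholly higher for 1 of the 3, against 9.9% of all genes. The part of these markers in the Batf3 values was not tested.

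**Figure D1:**
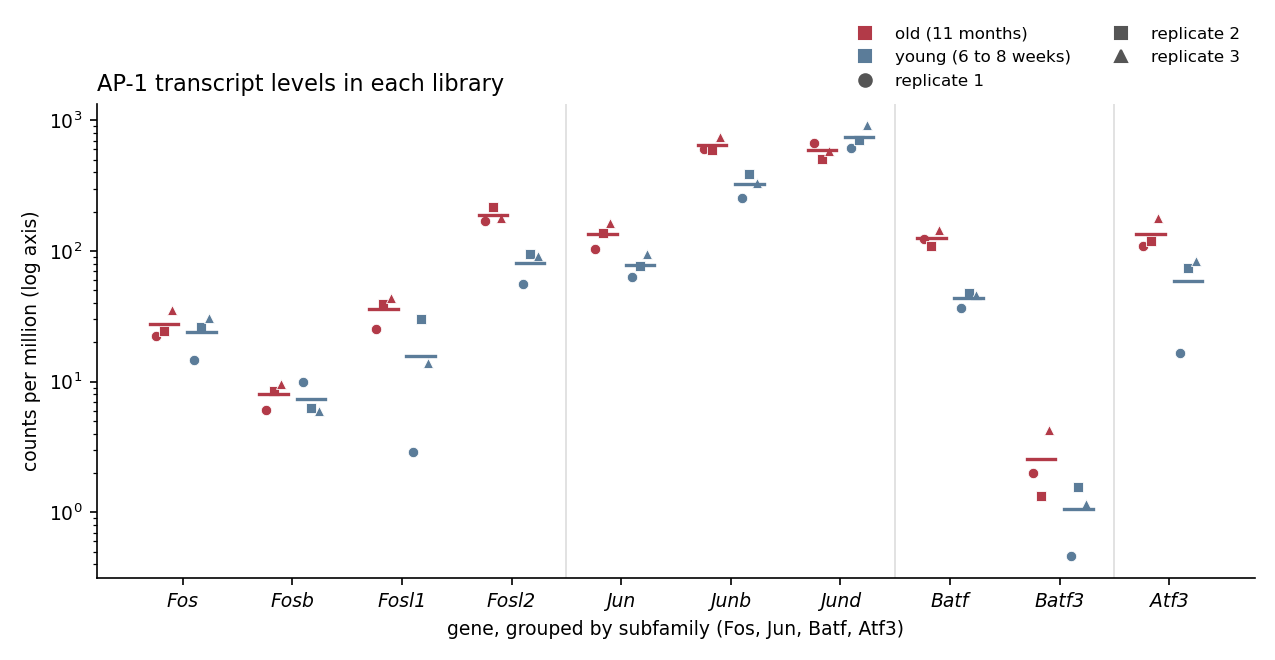
Level of each of the 10 AP-1 genes in each library, in CPM on a log axis, with old libraries left of young libraries and a line at each group's mean. Batf and Fosl2 show old libraries wholly above young libraries, Jund shows the old mean (590 CPM) below the young mean (747 CPM), and young replicate 1 lies far below the other libraries for Atf3 and Fosl1.

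Among the Fos subfamily, Fosl2 differed most clearly between the ages and Fos itself did not separate them. Fosl2 (Entrez gene 14284, chr5:32136472-32157840, GRCm38), a Fos-related factor without the strong activation domain of Fos, had 169, 216 and 180 CPM in old libraries, against 56.4, 95.7 and 91.8 CPM in young libraries. The groups did not overlap, and the log2 difference was 1.21 ± 0.24 (SE, n = 3 per group, 95% interval 0.66 to 1.76), with an adjusted p of 0.0824 in edgeR (quasi-likelihood, Benjamini-Hochberg), so it was not called. Without young replicate 1 the difference was 1.01 and the adjusted p 0.00798, and DESeq2 also called it with all libraries (adjusted p 0.000429). Without any of the other libraries the adjusted p in edgeR lay between 0.152 and 0.341.

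Fos, the immediate early gene that gave the family its name, had 22.5, 24.6 and 35.6 CPM in old libraries, against 14.8, 26.1 and 30.8 CPM in young libraries. The ranges of the groups overlapped. Its log2 difference of 0.21 had a 95% interval of -0.52 to 0.93, which ends below the lower bound of Batf, 1.10. The difference turned negative, to -0.045 without young replicate 1 and to -0.020 without old replicate 3.

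Fosb, a close relative of Fos, had 6.08, 8.49 and 9.63 CPM in old libraries, against 9.97, 6.31 and 5.98 CPM in young libraries, again with overlap. The log2 difference was 0.12 (95% interval -0.58 to 0.82), and it was -0.026 without old replicate 3 and -0.021 without young replicate 3. Its reads were divided between transcripts in a way that varied from library to library. The curated RefSeq transcript held 0, 0.75 and 1.78 FPKM in old libraries and 0.62, 0.62 and 1.5 FPKM in young libraries. One predicted transcript held 1.25, 1.62 and 0.75 FPKM in old libraries and 2.21, 1.11 and 0.01 FPKM in young libraries, and a further predicted transcript took 3.48% of the Fosb total. At this depth no order of the Fosb isoforms held across the libraries of either group.

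Fosl1, another Fos-related factor, varied widely within the young group. Old libraries had 25.3, 39.4 and 43.5 CPM, and young libraries 2.88, 30.2 and 13.8 CPM. Young replicate 2 lay above old replicate 1, so the groups overlapped. The log2 difference of 1.21 (1.205) had a 95% interval from -0.41 to 2.82, and it was 0.71 without young replicate 1 and 2.11 without young replicate 2. Fosl1 was the 1 member whose summed expected counts were not whole within 0.01, and its span overlaps that of Ccdc85b (39.8 CPM in old and 49.4 CPM in young libraries). With no strand setting stated, reads from the shared stretch cannot be told apart.

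The Jun genes had 2 positive and 1 negative differences, and 0 were called. Junb (Entrez gene 16477, chr8:84976909-84978748, GRCm38), a partner of Batf and of the Fos proteins, had 602, 591 and 749 CPM in old libraries, against 256, 388 and 330 CPM in young libraries. The groups did not overlap, and the log2 difference was 0.997 ± 0.21 (SE, n = 3 per group, 95% interval 0.51 to 1.49), or 1.995-fold. With an adjusted p of 0.0931 in edgeR (quasi-likelihood, Benjamini-Hochberg) it was not called. It was called without young replicate 1 (difference 0.85, adjusted p 0.0178 in the same test) and by DESeq2 with all libraries (adjusted p 0.000825), and without any of the other libraries its adjusted p in edgeR was 0.150 to 0.375.

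Jun, the founding member, had 104, 139 and 163 CPM in old libraries, against 63.4, 76.3 and 94.6 CPM in young libraries. The lowest old library was above the highest young library. Its log2 difference of 0.80 ± 0.23 (SE, n = 3 per group, 95% interval 0.26 to 1.33) had an adjusted p of 0.223 in edgeR (quasi-likelihood, Benjamini-Hochberg).

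Jund, which is transcribed in many resting cells and depends less on stimulation than the other Jun genes, was the 1 member with a negative difference. Old libraries had 677, 505 and 588 CPM, and young libraries 617, 704 and 920 CPM, with overlap through old replicate 1. The log2 difference of -0.34 had a 95% interval of -0.84 to 0.16 and an adjusted p of 0.679 in edgeR (quasi-likelihood, Benjamini-Hochberg). It stayed negative, between -0.46 and -0.17, whichever library was left out. The table lists 2 curated Jund transcripts with the same values in every library, each with 50% of the gene's FPKM, and their sum is used here.

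Atf3 had 109, 119 and 180 CPM in old libraries, against 16.7, 74.8 and 84.7 CPM in young libraries. The groups did not overlap, but young replicate 1 was far below the other 2 young libraries. The log2 difference of 1.21 (1.211) had a 95% interval of -0.06 to 2.48 and an adjusted p of 0.505 in edgeR (quasi-likelihood, Benjamini-Hochberg). Without young replicate 1 the difference was 0.77, with an adjusted p of 0.0690 in that test, and without young replicate 3 it was 1.56. A list of heat shock genes, which also respond to handling stress, summed to between 1545 and 1819 CPM in old libraries and between 820 and 2758 CPM in young libraries, with the 820 CPM in young replicate 1. Of its 6 genes 3 had positive and 3 negative log2 differences (median -0.055). Old libraries lay wholly higher for 0 and wholly lower for 0 of them, against 9.9% and 6.54% of all genes. The part of this list in the Atf3 values was not tested.

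**Figure D2:**
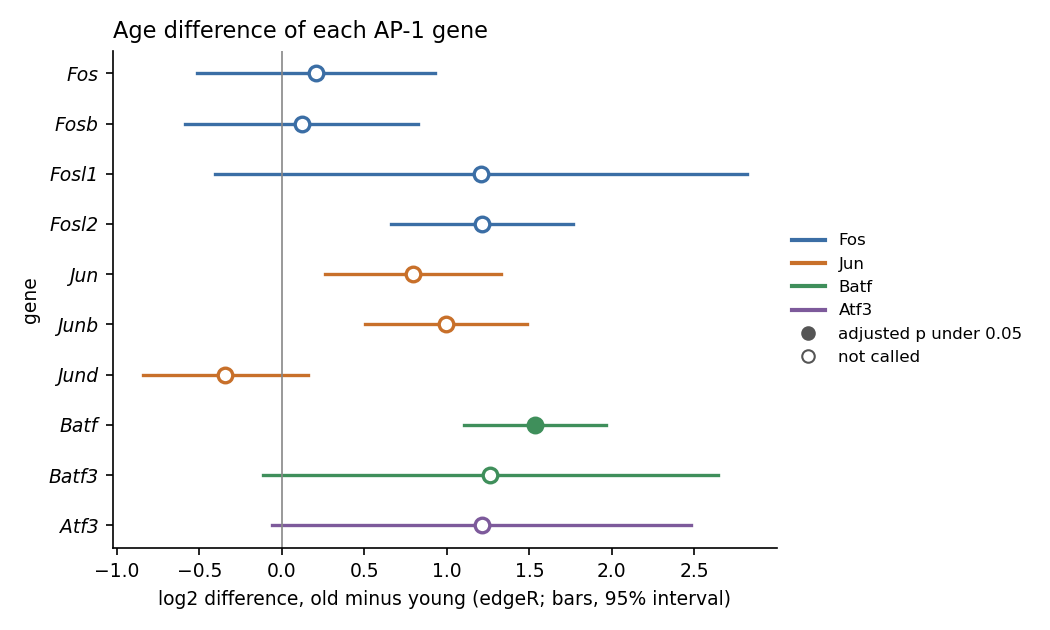
Log2 difference between old and young libraries for each AP-1 gene (x axis, old minus young, edgeR), with bars for the 95% interval, colours for the subfamily and a filled point for an adjusted p under 0.05. The Batf interval runs from 1.10 to 1.96, those of Fosl2, Jun and Junb also lie above 0, and the other 6 include 0.

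In all, 9 of the 10 members had a positive and 1 a negative difference, with a median of 1.10, while 44.9% of all genes tested were positive, with a median of -0.035. Groups did not overlap, with old libraries higher, for 5 members (Batf, Fosl2, Junb, Jun and Atf3), against 9.9% of all genes tested, and 0 members lay wholly lower, against 6.54% (16.4% in either direction). An unadjusted p under 0.05 was found for 4 members, against 10.6% of all genes. Without young replicate 1 edgeR called 3 members, Batf, Fosl2 and Junb, beside 8.84% of all genes, and DESeq2 called the same 3 with all libraries, beside 4.77% of all genes. With the other filters, RLE factors and limma, edgeR or limma called Batf alone, beside 1.11% of all genes with no filter, 0.684% at a mean FPKM of at least 5, 0.856% with RLE factors, and 0.942% and 0.914% in limma with pseudocounts of 1 and 0.1. Fosb and Batf3, with means of 2.11 and 2.60 FPKM, were not tested at a mean FPKM of at least 5. Without any one of the other 5 libraries 0 members were called, beside 0, 0.0571%, 0.0666% or 0.0856% of all genes. By subfamily, the median difference was 1.40 for the 2 Batf genes, 0.71 for the 4 Fos genes and 0.80 for the 3 Jun genes.

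**Figure D3:**
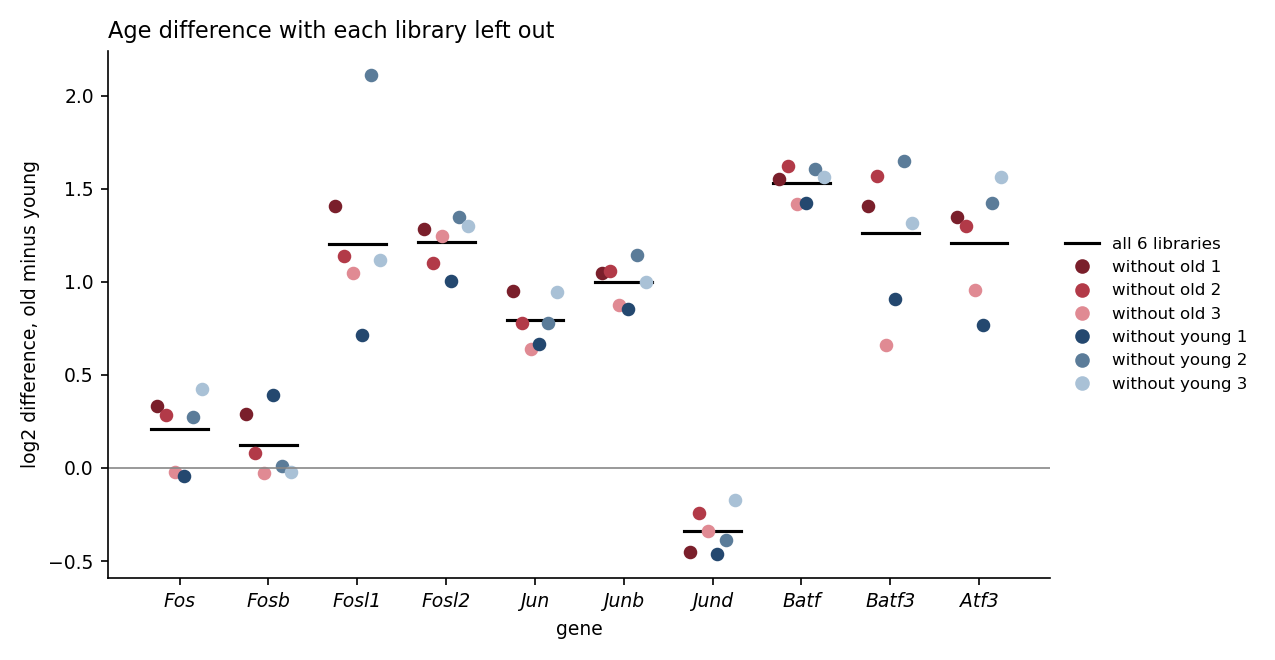
Log2 difference (y axis, old minus young) of each AP-1 gene with all 6 libraries (black line) and with each library left out in turn (points). Batf stays between 1.42 and 1.62, Fosl1 ranges from 0.71 to 2.11, Fos and Fosb cross 0, and Jund stays below 0.

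Levels of different genes can be set against each other per transcript length, in FPKM. In old libraries Junb led, at 353 ± 41.0 FPKM (SD, n = 3), followed by Jund at 204 ± 30.2, Batf at 142 ± 17.8 and Atf3 at 68.7 ± 18.1 FPKM, and neighbours in this order did not overlap. In young libraries Jund led, at 256 ± 45.1 FPKM (SD, n = 3), then Junb at 175 ± 34.1 and Batf at 48.8 ± 5.76 FPKM, also without overlap, whereas Atf3 at 29.2 ± 17.9 overlapped with Jun, next at 24.1 ± 4.06 FPKM. Fos was eighth of 10 in old libraries, at 13.2 ± 3.11 FPKM, and seventh in young libraries, at 11.3 ± 3.60 FPKM. It overlapped there with Fosl1 in both groups and with Fosl2 in young libraries. Batf3 and Fosb were the lowest in both groups, at 3.69 ± 2.17 and 2.20 ± 0.446 FPKM in old libraries and 1.52 ± 0.784 and 2.02 ± 0.707 FPKM in young libraries, and overlapped with each other.

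Summed over the 10 genes, AP-1 transcripts came to 857, 811 and 980 FPKM in old libraries, against 455, 619 and 638 FPKM in young libraries, so the old libraries held more without overlap. The make-up of this pool differed as well. Jun subfamily transcripts made up 68.0 ± 1.99% of it in old libraries and 80.1 ± 3.44% in young libraries (SD, n = 3 each). Batf subfamily transcripts made up 16.5 ± 0.690% in old libraries and 8.89 ± 0.742% in young libraries. The Fos subfamily held 7.79 ± 1.33% in old and 6.17 ± 1.52% in young libraries, and Atf3 held 7.72 ± 1.32% in old and 4.82 ± 2.54% in young libraries. The groups overlapped for the Fos share but not for the Jun and Batf shares. For Atf3 they lay just apart, at 6.51%, 7.51% and 9.13% in old libraries and 1.90%, 6.10% and 6.46% in young libraries, and the difference of 2.90 percentage points became 1.44 without young replicate 1. That of the Fos subfamily, 1.62 points, became 0.908 without it. Jund alone took 23.3 ± 3.85% of the pool in old libraries and 45.1 ± 5.07% in young libraries. Shares of one pool add up to 100%, so they are not independent of each other, and no test was made on them, since with 3 libraries against 3 an exact permutation test cannot give a two-sided p under 0.1.

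**Figure D4:**
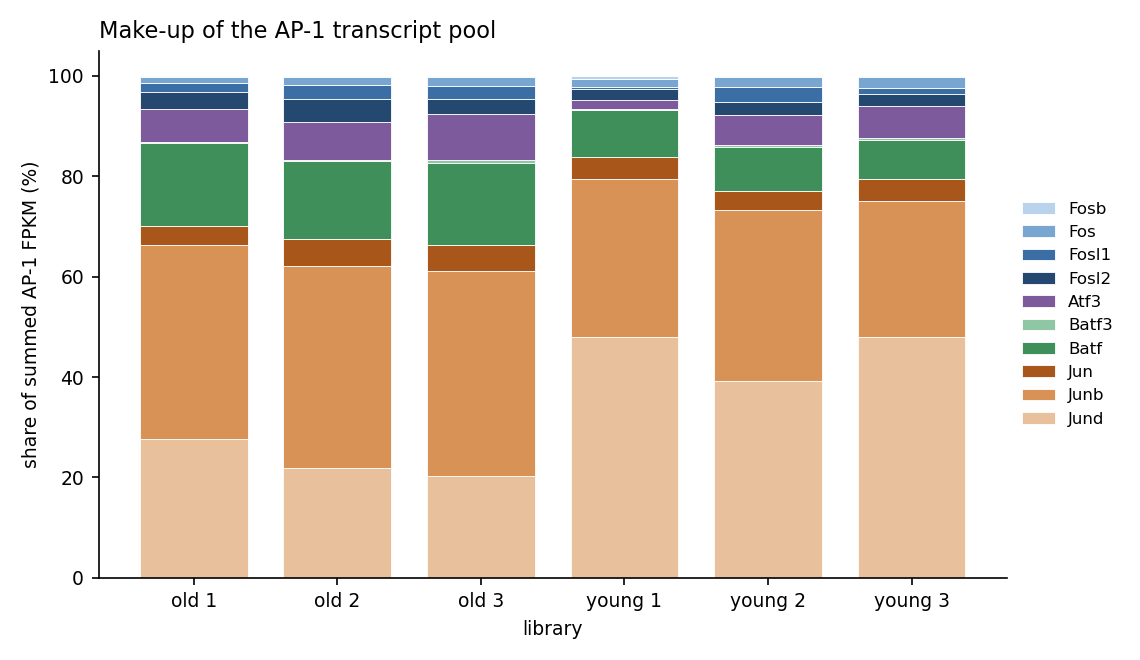
Share of each AP-1 gene in the summed FPKM of the 10 genes (y axis, percent), stacked for each library. Batf takes 15.5% to 16.4% in old libraries and 7.81% to 9.36% in young libraries, and Jund 20.3% to 27.6% in old and 39.2% to 48.02% in young libraries.

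Ratios within a library do not depend on how libraries are scaled to each other. The log2 ratio of Batf to Jun subfamily FPKM was -2.07, -2.10 and -1.96 in old libraries, against -3.14, -3.09 and -3.30 in young libraries. The groups were separated by a mean of 1.13, several times the spread between replicates (pooled SD 0.0950), and young replicate 1 lay between the other 2 young libraries. For Batf to Fos subfamily FPKM the log2 ratio was 1.35, 0.77 and 1.17 in old libraries, against 1.01, 0.23 and 0.42 in young libraries. Here the groups overlapped, at a mean difference of 0.54 with a pooled SD of 0.354. The Fos to Jun subfamily ratio also overlapped, at -3.41, -2.87 and -3.13 in old and -4.15, -3.31 and -3.72 in young libraries on the log2 scale, with a mean difference of 0.59 and a pooled SD of 0.351.

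Within the Jun subfamily, the log2 ratio of Junb to Jund was 0.49, 0.88 and 1.01 in old libraries, against -0.61, -0.20 and -0.83 in young libraries. Junb was thus the more abundant of the pair in each old library and Jund in each young one, with a mean difference of 1.34 that stayed between 1.20 and 1.51 whichever library was left out. Within the Fos subfamily, the log2 ratio of Fosl2 to Fos was 1.41, 1.64 and 0.83 in old libraries, against 0.43, 0.37 and 0.07 in young libraries, without overlap. Batf to Junb stood at -1.24, -1.38 and -1.31 in old libraries, against -1.75, -1.97 and -1.79 in young libraries, also without overlap. Batf to Fosl2 overlapped, with a mean difference of 0.29 and a pooled SD of 0.295. These pairs were picked after the levels had been seen and are descriptions.

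Other basic leucine zipper factors, a list of 23 genes with 20 tested, had 2 higher and 0 lower calls in edgeR, beside 0.742% and 0.133% of all genes. Their median difference was 0.54, and 16 of the 20 were positive, beside 44.9% of all genes. Old libraries lay wholly higher for 10 of the 20 and wholly lower for 1, against 9.9% and 6.54% of all genes. Maf, which drives Il21 and Il10 in helper T cells, had 152, 167 and 139 CPM in old libraries, against 41.8, 41.8 and 23.9 CPM in young libraries. Nfil3, a zipper repressor induced by Il3, rose with it, to 115, 97.8 and 83.4 CPM in old libraries, against 24.7, 44.6 and 29.4 CPM in young libraries, and its log2 difference was 1.58 ± 0.26 (SE, n = 3 per group) with an adjusted p of 0.0451 in edgeR (quasi-likelihood, Benjamini-Hochberg). Neither gene's groups overlapped.

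Jdp2, the gene between Fos and Batf, was not called, at 16.4, 13.7 and 16.3 CPM in old libraries against 6.51, 7.65 and 7.76 CPM in young libraries. Its groups did not overlap either, and its log2 difference of 1.08 ± 0.20 (SE, n = 3 per group) had an adjusted p of 0.0664 in edgeR (quasi-likelihood, Benjamini-Hochberg), or 0.0183 without young replicate 1. The 3 zipper genes of that stretch of chromosome 12 thus had log2 differences of 0.21 (Fos), 1.08 (Jdp2) and 1.53 (Batf). Cebpb, Crem and Nfe2l1, the next by p after Jdp2 in this list, had differences of 0.99, 1.07 and 0.80, each with an adjusted p between 0.0895 and 0.116 in that test. Leaving out young replicate 1 gave 7 higher calls and 0 lower among the 20, beside 8.84% of all genes, whereas leaving out young replicate 3 gave 1 call and leaving out any one of the other 4 libraries gave 0.

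Kinases and regulators upstream of AP-1 had 1 higher and 0 lower calls in edgeR among 31 tested genes, beside 0.742% and 0.133% of all genes. Their median was 0.09, or 0.20 without young replicate 1. Old libraries lay wholly higher for 7 of the 31 and wholly lower for 1, against 9.9% and 6.54% of all genes. The call was Mapk12, the gamma isoform of p38, at 13.3, 10.9 and 8.22 CPM in old libraries against 3.23, 3.10 and 2.30 CPM in young libraries, a difference of 1.90 ± 0.29 in log2 units (SE, n = 3 per group) with an adjusted p of 0.0368 in edgeR, Benjamini-Hochberg adjusted. Mapk11, the beta isoform, had 87.3, 89.9 and 106 CPM in old libraries, against 54.6, 57.3 and 59.5 CPM in young libraries, without overlap and without a call (0.73 ± 0.15, adjusted p 0.0922 in the same test). Without young replicate 1 edgeR called 3 of the 31, beside 8.84% of all genes, and without any one of the other 5 libraries 0, so that the Mapk12 call was lost there. Map3k8 and Map3k5, kinases of the tier that starts the cascades, differed by 0.73 and 0.59, with no call. Rasgrp1, which activates Ras below the T-cell receptor, stood at 194 CPM in old and 342 CPM in young libraries, and its log2 difference of -0.81 became -0.32 without young replicate 1, which alone had 541 CPM.

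Among 18 serum response and early genes, 0 were called in edgeR, beside 0.875% of all genes, and the median was 0.31. DESeq2 called 2 of the 18, beside 4.77% of all genes, and 5 had an unadjusted p under 0.05, beside 10.6%. Egr1 and Egr2, zinc finger factors induced together with Fos, had means of 779 ± 145 and 398 ± 39.5 CPM in old libraries, and of 398 ± 79.5 and 178 ± 65.7 CPM in young libraries (SD, n = 3 each). Their log2 differences of 0.97 and 1.16 had adjusted p values of 0.120 and 0.160 in edgeR (quasi-likelihood, Benjamini-Hochberg), and 0.0339 and 0.00957 without young replicate 1. Ier3 and Ier5, immediate early response genes, differed by 1.29 and 0.52. These 4 genes, named for their small p, did not overlap between the groups. In the whole list 5 of 18 genes were wholly higher in old libraries, against 9.9% of all genes.

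Partner factors of AP-1, 19 genes, also held 0 calls in edgeR, beside 0.875% of all genes. Their median was 0.49, and 16 had positive differences, beside 44.9% of all genes. DESeq2 called 5 of them, beside 4.77% of all genes, and 7 had an unadjusted p under 0.05, beside 10.6%. Old libraries lay wholly higher for 9 of the 19 and wholly lower for 1, against 9.9% and 6.54% of all genes. The smallest p values belonged to Gata3, the Th2 factor, Foxp3, the regulatory T-cell factor, Prdm1, a transcriptional repressor, and Stat3, which acts below Il6 and Il21. Gata3 had 142 ± 9.33 CPM in old and 79.4 ± 15.4 CPM in young libraries, and Foxp3 389 ± 30.6 CPM in old and 128 ± 70.7 CPM in young libraries (SD, n = 3 each). Prdm1 and Stat3 had log2 differences of 1.64 and 0.65. Irf4, the partner of Batf at composite sites, falls outside the rule for named genes and was added after its value was seen. It had 1628, 2002 and 2141 CPM in old libraries, against 753, 1602 and 1361 CPM in young libraries, a difference of 0.63 ± 0.30 in log2 units (SE, n = 3 per group) with an adjusted p of 0.538 in edgeR, Benjamini-Hochberg adjusted. The log2 ratio of Batf to Irf4 FPKM was -1.29, -1.76 and -1.45 in old libraries, against -1.92, -2.63 and -2.45 in young libraries, so the groups did not overlap.

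Genes known as AP-1 or Batf-Irf4 targets in T cells had a median difference of 1.68 over 32 tested genes. All 32 were positive, beside 44.9% of all genes. In edgeR 5 were called higher and 0 lower, beside 0.742% and 0.133% of all genes. Old libraries lay wholly higher for 20 of the 32, against 9.9% of all genes. The calls were Il10, Ccl3, Tigit, Il21 and Ctla4, with adjusted p values from 0.0207 to 0.0262 in edgeR (quasi-likelihood, Benjamini-Hochberg). Next by p, and not called, came Cxcr5, the homing receptor of follicular helper cells, at 55.0, 46.9 and 35.3 CPM in old libraries against 16.7, 12.8 and 6.44 CPM in young libraries, and Havcr2, the inhibitory receptor Tim-3, at 7.50, 8.71 and 21.4 CPM in old libraries against 2.48, 1.55 and 0.805 CPM in young libraries. Both were separated between the groups. The costimulatory genes Tnfrsf4 (Ox40) and Cd40lg had log2 differences of 1.18 and 1.14. Several of these genes are also markers of regulatory or follicular helper cells, and the list does not tell AP-1 targets from such cells. Without young replicate 1 edgeR called 15 of the 32 higher, beside 8.84% of all genes, and without any one of the other 5 libraries it called 0 of the 32. The list was drawn up with earlier results of these libraries known, so its direction is not independent evidence.

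Genes that turn over or modify AP-1 products, 20 in all, had 0 calls in edgeR, beside 0.875% of all genes. Their median was 0.05, or 0.23 without young replicate 1. DESeq2 called 1 of the 20, beside 4.77% of all genes, and 1 had an unadjusted p under 0.05, beside 10.6%. Old libraries lay wholly higher for 5 of the 20 and wholly lower for 0, against 9.9% and 6.54% of all genes. The 4 with the smallest p were Zc3h12d, an RNase of the Regnase family (0.62), Dusp6, an ERK phosphatase (1.10), Zfp36l1, which speeds the decay of AU-rich transcripts (0.39), and Dusp4, a nuclear MAP kinase phosphatase (0.47), in log2 units. For Dusp6 the old libraries had 161, 199 and 240 CPM, and the young libraries 32.3, 121 and 127 CPM, so young replicate 1 was again far below the others.

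**Figure D5:**
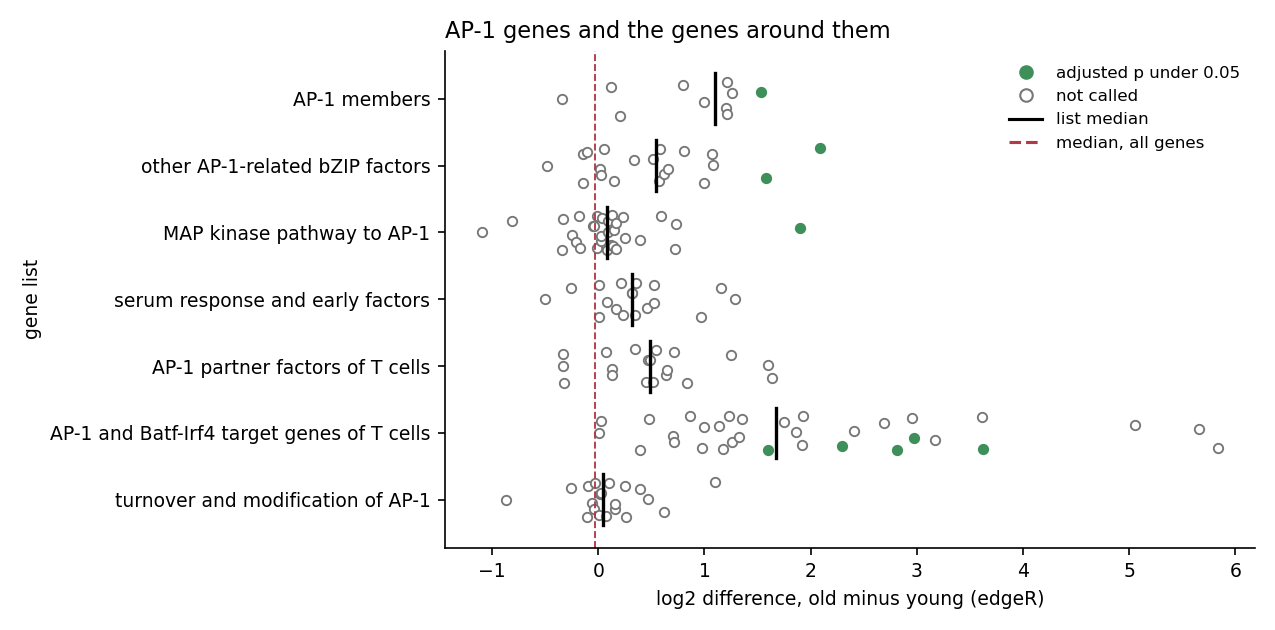
Log2 difference of each tested gene (x axis, old minus young, edgeR) in the AP-1 members and in 6 lists of related genes, with filled points for an adjusted p under 0.05, a black line at each list's median and a dashed line at the median of all genes tested. The medians are 1.10 for the members, 1.68 for the target list and 0.05 to 0.54 for the others.

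The genes most like a member over the 6 libraries were found by the root-mean-square distance between log2 CPM profiles centred on their means, over 10491 genes without a count of 0. For Batf these were Oas1a, an interferon-induced synthetase, at a distance of 0.111, Chac1, an enzyme that degrades glutathione, at 0.138, and Metrnl, a secreted protein, at 0.147, against a median distance of 0.827. Nearest to Fosl2 were Pck2, the mitochondrial form of an enzyme of gluconeogenesis, at 0.129, Hif1a, the hypoxia factor, at 0.129, and Pcgf2, a polycomb protein, at 0.144 (median 0.724). Nearest to Junb were Gpr183, an oxysterol receptor, at 0.0948, Cldnd1, a membrane protein, at 0.0975, and Mthfd2, an enzyme of mitochondrial one-carbon metabolism, at 0.1001 (median 0.605). Among the members, Batf was closest to Junb, at 0.273 (32nd of all genes), and to Fosl2, at 0.281 (36th), and far from Jund, at 0.950.

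Marker lists of other T-cell states and cell types gave these sums. Naive T-cell markers, 8 genes, summed to between 2551 and 3025 CPM in old libraries and between 3871 and 7807 CPM in young libraries, the highest being young replicate 1. All 8 had negative differences (median -1.31, or -0.47 without young replicate 1), 5 were wholly lower in old libraries, and 0 were called in edgeR (3 lower in DESeq2, and 5 by unadjusted p under 0.05). Of all genes, 6.54% were wholly lower, 0.875% were called in edgeR, 4.77% were called in DESeq2 and 10.6% had an unadjusted p under 0.05. Regulatory T-cell markers, 7 genes, summed to between 2752 and 2892 CPM in old and 924 and 1385 CPM in young libraries. In edgeR 2 of the 7 were called higher (Ikzf2 and Ctla4), beside 0.742% of all genes. All 7 were positive (median 1.57) and wholly higher in old libraries, against 9.9% of all genes wholly higher. DESeq2 called all 7 higher, beside 4.77% of all genes called in either direction. Without young replicate 1 edgeR called 6 of the 7 higher, beside 8.84% of all genes. Memory and effector markers, 8 genes, had a median log2 difference of 1.20, with 7 of 8 positive, 5 wholly higher in old libraries and 3 called higher in edgeR (5 in DESeq2). The shares over all genes were 9.9% wholly higher, 0.742% called higher in edgeR and 4.77% called in either direction in DESeq2. The sums of these 8 markers were 537 to 704 CPM in old and 200 to 895 CPM in young libraries, of which 681 of the 895 CPM in young replicate 1 were Il7r. Natural killer, neutrophil and CD8 T-cell markers summed to at most 38.5, 23.5 and 14.6 CPM in old libraries and at most 99.9, 58.4 and 27.4 CPM in young libraries, with lower sums in each old library than in any young one. Of these lists, 1 of 5, 4 of 7 and 1 of 2 genes were tested, all with negative differences. Old libraries lay wholly lower for 1, 3 and 1 of them, against 6.54% of all genes. Cd8a, the CD8 gene not tested, had 2.08 CPM in old and 1.94 CPM in young libraries. B-cell and macrophage markers overlapped, at most at 27.9 and 16.0 CPM in old and 39.7 and 19.7 CPM in young libraries. The part of these cell types and states in the AP-1 differences was not tested.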

How the data were processed

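Total RNA of 6 CD4+ T-cell libraries was sequenced on an Illumina HiSeq, per the labels' protocols. The authors deposited 1 table over 66712 RefSeq transcripts that gives, for every library, expected counts and FPKM, per the file headers. Per the submitters' processing notes, Bowtie and RSEM were used with mouse build GRCm38, also called mm10. The sources used here give no versions, annotation release, strand setting or filters. RSEM divides reads among the transcripts they fit, so isoforms and paralogs are estimates. The deposited mean columns served only as a check and differed from the means of the libraries by at most 3.33e-05.

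Both measures were added up per Entrez gene, symbols were matched for 19830 of 19977 genes in RefSeq's GRCm38.p6 table, and counts were rounded. Genes averaging 1 FPKM or more were tested in edgeR 4.0.16 (R 4.3.3, TMM, quasi-likelihood, no replicate block), with Benjamini-Hochberg adjustment over all 10509 genes and a threshold of 0.05. Standard errors were derived from F as the difference over its root. Alternatives were other filters, RLE factors, DESeq2 1.42.0, limma 3.58.1 on log2(FPKM + 1) or log2(FPKM + 0.1), a replicate block, and leaving out each library. The fits were tested on counts simulated with the dispersion that edgeR fitted to these data. No library was set apart in that simulation, so it does not cover a library like young replicate 1. No 2 libraries agreed within sampling noise (chi-square per degree of freedom at least 21.6).

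Groups and numbers come from the titles. The members and gene lists were chosen with earlier results of these data known. Besides the members, the text names called genes and up to 4 others of smallest p in each list, and the 3 genes most like the leading member of the Fos, Jun and Batf subfamilies. Irf4, Ccdc85b, the marker genes named and the gene pairs set in ratios were chosen after their values were seen. No protein sequences were used here. Figures were drawn with matplotlib 3.10.9.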

Additional observations from a re-analysis of the deposited data

How the results depend on the processing

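All 10 members kept the sign of their difference under all alternatives that tested them, except Fos (-0.045 without young replicate 1, -0.020 without old replicate 3, and up to 0.42 with another library left out) and Fosb (-0.026 without old replicate 3, -0.021 without young replicate 3, and up to 0.39). Fosb and Batf3 fell below the filter of a mean FPKM of at least 5, so that fit did not test them. Of the 10 members, edgeR called 1, DESeq2 3, the fit with a replicate block 2 (Batf and Fosl2, beside 1.13% of all genes), and the other filters, scalings and limma fits 1 each, always including Batf. With a library left out, the number ranged from 0 to 3, and 0 members were called lower in each fit. Over all genes, 92 were called (78 higher, 14 lower) with all libraries, 203 with no filter (182 higher, 21 lower), 55 at a mean FPKM of at least 5 (46 higher, 9 lower), 501 in DESeq2 (374 higher, 127 lower) and 119 with the replicate block. With a library left out they ranged from 0 to 929 (0 to 616 higher, 0 to 313 lower). The counts of 0 in edgeR, without old replicate 2 or young replicate 2, stood beside 688 and 1296 genes whose unadjusted p was under 0.05. Same-numbered deviations from the group means correlated at 0.232, -0.025 and 0.209 for numbers 1 to 3, and differently numbered ones at -0.348 to 0.360. With 3 libraries per group, these correlations cannot decide whether the replicate numbers pair the libraries. The Batf to Jun subfamily ratio differed by 1.26 on summed counts and by 1.13 on FPKM, which unlike counts is scaled to transcript length. The Batf to Junb ratio, between single genes, differed by 0.524 on both measures. The cause of the subfamily change was not tested. For the lists and shares, leaving out libraries was a choice made after seeing the data. Without young replicate 1 edgeR called 3 of 31 kinase, 4 of 18 early, 8 of 19 partner and 2 of 20 turnover genes, all higher, beside 8.84% of all genes, so the kinase and turnover counts were near that share. Without any one of the other libraries these 4 lists held 0 calls. Batf3 had the fewest counts of the members, 8 to 79.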
